A study of Mus musculus with 16 samples.

Results

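The 10 genes described here mark brain endothelium, the cells that line blood vessels, and the blood-brain barrier that these cells form. They were taken by symbol, as Cldn5, Pecam1, Cdh5, Slc2a1, Mfsd2a, Flt1, Kdr, Tek, Tie1 and Abcb1a, out of 16250 gene symbols listed in at least 1 library and 13396 listed in all 16. All 10 were listed in every library, and all 10 passed the filter on a mean of at least 1 FPKM (reads per length of transcript and per size of library) in each comparison. The mice were wild type, and brain tissue was taken from fetuses on embryonic day 18.5. There were 5 cortex and 3 hippocampus libraries of the enriched environment (EE) group, and 5 cortex and 3 hippocampus libraries of the standard habitation (SH) group. The series title names the enrichment as prenatal. Enrichment means, as background, housing with added space, objects or company. The labels name neither fetus, litter nor sex, so libraries may share a litter, and the spread behind each p-value is that among libraries, which may be technical.

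Brain capillaries differ from other capillaries in that their endothelial cells are sealed by tight junctions, carry out little transcytosis, and move nutrients and drugs through named transporters. In the developing brain, vessels grow in from the surface towards VEGF made by neural progenitors, and Wnt ligands from the same progenitors turn on barrier genes in the ingrowing endothelium. Endothelial cells are a small part of brain tissue, so in whole tissue the level of such a gene follows both how many endothelial cells there were and how much RNA each held, and fewer cells cannot be told apart from less RNA per cell.

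By role, the 10 genes fall into 4 groups. Cldn5 (claudin-5, the main tight junction claudin of brain endothelium), Cdh5 (VE-cadherin, of adherens junctions) and Pecam1 (an adhesion molecule at endothelial contacts) hold the cells together. Slc2a1 (the glucose transporter GLUT1), Mfsd2a (a lysolipid transporter for omega-3 fatty acids that also limits transcytosis) and Abcb1a (P-glycoprotein, a drug efflux pump) are transporters. Kdr (VEGFR2, the main signalling receptor for VEGF) and Flt1 (VEGFR1, which binds VEGF and signals weakly) are VEGF receptors. Tek (TIE2, the angiopoietin receptor) and Tie1 (its partner receptor) act in vessel maturation. In mm10 with GENCODE M21 the genes are protein coding. Kdr lies on chromosome 5 from 75932827 to 75978458 (minus strand), Mfsd2a on chromosome 4 from 122946850 to 122961188 (minus strand), and Cldn5 on chromosome 16 from 18776847 to 18778262 (plus strand), the last in 1 exon. Slc2a1 lies on chromosome 4 from 119108711 to 119137983, and Abcb1a on chromosome 5 from 8660077 to 8748575, both on the plus strand. Cldn5 has the shortest longest transcript of the 10, at 1416 bases, against 2151 bases for Mfsd2a, 3260 for Slc2a1, 5924 for Kdr and 6895 for Flt1.

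The sequence just before the start site is shown for Kdr and Mfsd2a, which differed between tissues, and for Cldn5. Cldn5 is the gene among the 10 whose EE and SH ranges did not overlap in either cortex set. Its EE values lay below SH in replicates 1 to 3 and above SH in replicates 4 and 5. Of all genes, 29.9% and 46.6% had no overlap in these sets. The sequences shown are RefSeq promoters of GRCm38.p6 (the assembly also called mm10), printed 5′ to 3′ along the gene and ending before the annotated gene. The Kdr window is cut to 247 bases for that reason. Capitals mark matches, on either strand, to GGAAG (a core bound by ETS factors), ACGTG (the core of the hypoxia response element), GGGCGG (the GC box) or TATAAA (the TATA box).
Kdr, chr5:75978459-75978705, minus strand: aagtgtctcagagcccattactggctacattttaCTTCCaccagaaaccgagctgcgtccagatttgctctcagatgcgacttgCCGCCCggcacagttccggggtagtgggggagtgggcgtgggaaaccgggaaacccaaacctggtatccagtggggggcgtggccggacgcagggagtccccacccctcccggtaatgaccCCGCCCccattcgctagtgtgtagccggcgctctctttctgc
Mfsd2a, chr4:122961189-122961438, minus strand: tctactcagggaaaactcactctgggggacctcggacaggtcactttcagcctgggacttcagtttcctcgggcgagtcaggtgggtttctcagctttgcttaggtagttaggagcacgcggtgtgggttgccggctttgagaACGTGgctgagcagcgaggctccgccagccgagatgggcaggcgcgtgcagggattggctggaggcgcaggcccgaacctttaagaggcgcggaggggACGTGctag
Cldn5, chr16:18776597-18776846, plus strand: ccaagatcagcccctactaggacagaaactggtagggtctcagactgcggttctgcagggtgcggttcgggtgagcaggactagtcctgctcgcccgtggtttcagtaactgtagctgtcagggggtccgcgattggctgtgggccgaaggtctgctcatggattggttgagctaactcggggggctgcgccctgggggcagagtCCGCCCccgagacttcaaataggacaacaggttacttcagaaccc
Counted in bases upstream of the RefSeq start, the Kdr window held a GGAAG match at 216 and GC boxes at 166 and 45. The Mfsd2a window held ACGTG at 107 and 9, and the Cldn5 window held a GC box at 45. Windows were found for 8 of the 10 genes, not for Pecam1 and Cdh5. GGAAG occurred in 4 of the 8 (Kdr, Flt1, Tie1 and Abcb1a), ACGTG in Slc2a1 and Mfsd2a, the GC box in 4 (Kdr, Flt1, Cldn5 and Slc2a1), TATAAA in Flt1, and no searched motif in Tek. The Abcb1a window (chr5:8566841-8567090) follows the RefSeq start and lies far upstream of the GENCODE start given above, so its matches are not next to that start. The Tie1 window (chr4:118489850-118490099, minus strand) and the Slc2a1 window (chr4:119108495-119108744) run past the GENCODE starts, at 118490061 and 119108711. Some of their matches therefore lie inside the annotated gene. Over 32851 mouse promoter windows of 250 bases, 64.1% held GGAAG, 16.6% ACGTG, 32.7% a GC box and 12.4% TATAAA. These matches describe letters and are not evidence of binding.

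Reads recovered from the FPKM steps ran from 10683140 to 20098661 per library, and the 10 genes had from 106 (Abcb1a) to 3338 (Cldn5) recovered reads. Libraries came in 3 sets whose tables list different numbers of genes: 15996 in cortex replicates 1 to 3, 13448 in cortex replicates 4 and 5, and 15247 in hippocampus. Summed FPKM was 511438 in cortex SH replicate 3 and 339726 to 396658 elsewhere. In hippocampus, 7 choroid plexus markers listed in all 16 libraries, Ttr among them, summed to 5129, 10586 and 17081 FPKM in EE replicate 1, EE replicate 2 and SH replicate 1, but to 45.8 to 161 FPKM in the other 3 libraries and 27.2 to 721 FPKM in cortex. These 3 hippocampal libraries, set apart after their values were seen by a sum above 1000 FPKM, are called choroid-rich.

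Endothelial identity was present in every library. Of 34 further endothelial genes, 33 were listed in all 16 libraries, and they summed to 142 to 230 FPKM per library. The 10 genes themselves summed to 97.01 to 161.8 FPKM. On the FPKM scale, which is per length, the cortex means over 10 libraries ran in the order Cldn5 (53.2), Slc2a1 (21.6), Mfsd2a (12.9), Cdh5 (9.68), Pecam1 (5.598), Tie1 (5.16), Kdr (5.12), Tek (3.23), Abcb1a (2.45) and Flt1 (1.84). Deviations of libraries from the mean of their set still ran with transcript length, at a Spearman rho from -0.76 to 0.65 over 12231 genes. The order of genes is therefore approximate. Neighbours in that order from Pecam1 to Kdr had overlapping ranges: 3.73 to 8.15 FPKM for Pecam1, 4.33 to 6.23 FPKM for Tie1 and 1.899 to 7.24 FPKM for Kdr. In hippocampus, with 6 libraries, the order was Cldn5 (44.8), Slc2a1 (30.2), Mfsd2a (17.0), Kdr (11.3), Cdh5 (7.63), Pecam1 (5.76), Tie1 (5.47), Tek (2.69), Flt1 (1.85) and Abcb1a (1.58). Kdr was thus next to Tie1 and Pecam1 in cortex and had rank 4 in hippocampus. Without cortex SH replicate 3 the cortex means were 5.81 FPKM for Pecam1, 5.48 FPKM for Kdr and 5.22 FPKM for Tie1, so Kdr and Tie1 changed places.

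**Figure D1:**
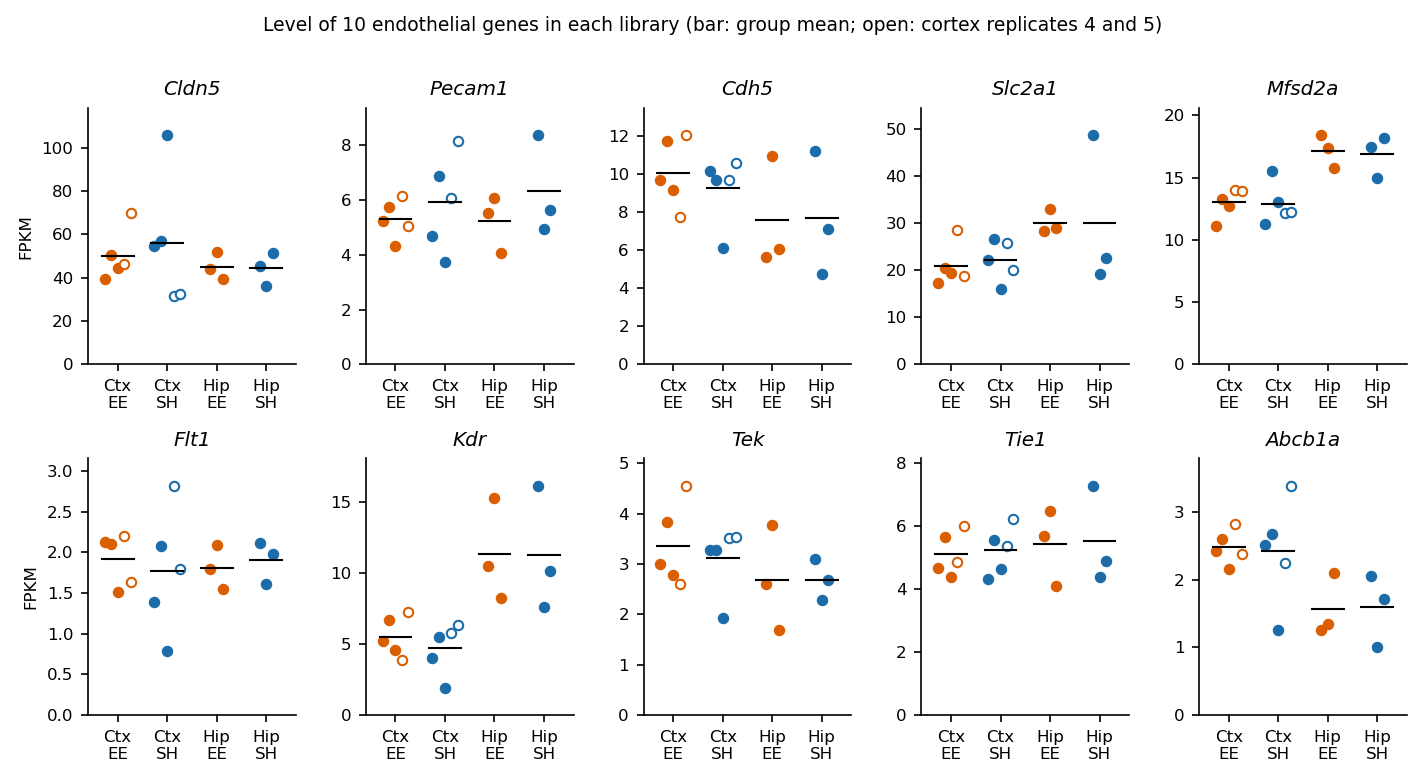
Level of each of the 10 endothelial genes in FPKM (vertical axis, from 0) in every library of cortex (Ctx) and hippocampus (Hip), EE in orange and SH in blue. Bars are group means, and open circles are cortex replicates 4 and 5. Kdr is the 1 gene whose 6 hippocampal points, 7.61 to 16.2, all lie above its cortex points, and the Cldn5 point at 105.6 is cortex SH replicate 3.

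The first comparison asked whether the tissues differ in these genes, over replicates 1 to 3 of both (6 hippocampus against 6 cortex libraries). Kdr and Mfsd2a were higher in hippocampus, and the other 8 did not pass the threshold, an adjusted p of 0.05 or less over all genes tested. Calls were common between these tissues: 4661 of 13158 genes tested (35.4%) passed, so 2 of 10 is not above the background. The median log2 difference of the 10 genes was 0.12, beside 0.09 over all genes. Median-of-ratios scaling shifted the median of all genes by -0.10 and changed the share of higher calls from 69.4% to 52.1%, and 3 of the 10 then passed (33.4% of all genes): Kdr and Mfsd2a higher and Abcb1a lower. With quantile normalization 4 passed (32.1% of all genes), with each library's trend on transcript length removed 5 (47.4%), in EE libraries alone 3 (36.7%), and without cortex SH replicate 3 also 3 (43.7%). The tissues were also separate sets of libraries with separate gene lists, so tissue and set cannot be told apart.

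Kdr showed the largest difference of the 10. It measured 10.5, 15.3 and 8.23 FPKM in hippocampus EE replicates 1 to 3 and 16.2, 7.61 and 10.1 FPKM in hippocampus SH replicates 1 to 3. In cortex it measured 5.25, 6.68, 4.58, 3.89 and 7.24 FPKM in EE replicates 1 to 5 and 3.998, 5.51, 1.899, 5.80 and 6.36 FPKM in SH replicates 1 to 5. Every hippocampal library lay above every cortex library, and no other of the 10 genes separated the tissues. Over all genes, ranges did not overlap for 11.7% with all 16 libraries and for 20.5% with replicates 1 to 3. The mean was 11.3 ± 3.59 FPKM (SD, n = 6) in hippocampus and 4.65 ± 1.63 FPKM (SD, n = 6) in cortex replicates 1 to 3, 2.43 times as high. The log2 difference, taken on log2(FPKM + 1) as are all that follow, was 1.14 ± 0.23 (SE; limma, adjusted p = 0.00231).

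Within hippocampus, the highest Kdr values belonged to the choroid-rich libraries (10.5, 15.3 and 16.2 FPKM, against 7.61, 8.23 and 10.1 FPKM in the other 3). Without the choroid-rich libraries the log2 difference was 0.88 ± 0.25 (limma, adjusted p = 0.0414, with 16.4% of genes called), and without cortex SH replicate 3 as well it was 0.67 ± 0.15 (adjusted p = 0.00752, with 31.0% called). In SH libraries alone it was 1.38 ± 0.35 and did not pass (adjusted p = 0.0692, with 3.93% called), while EE libraries alone gave 0.90 ± 0.20 (adjusted p = 0.00907). The part that choroid plexus tissue had in the size of the difference was not tested beyond these values.

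Mfsd2a differed less, with narrow spread. It measured 18.4, 17.3 and 15.8 FPKM in hippocampus EE replicates 1 to 3 and 17.5, 14.9 and 18.2 FPKM in SH replicates 1 to 3. In cortex it measured 11.1, 13.3, 12.7, 14.0 and 13.9 FPKM in EE replicates 1 to 5 and 11.3, 15.6, 13.1, 12.2 and 12.3 FPKM in SH replicates 1 to 5. The tissues met only where cortex SH replicate 2 (15.6 FPKM) passed hippocampus SH replicate 2 (14.9 FPKM). The log2 difference was 0.39 ± 0.09 (SE; limma, adjusted p = 0.00660). The call was lost without the choroid-rich libraries (0.31 ± 0.12, adjusted p = 0.116) and in SH libraries alone (0.33 ± 0.17, adjusted p = 0.243).

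The other transporters went opposite ways without passing. Slc2a1 measured 28.4, 33.1 and 29.0 FPKM in hippocampus EE and 48.7, 19.2 and 22.6 FPKM in hippocampus SH, against 16.02 to 28.6 FPKM over the 10 cortex libraries, and the ranges overlapped. Its log2 difference was 0.50 ± 0.19 (limma, adjusted p = 0.0625), and 0.21 ± 0.18 without the choroid-rich libraries (adjusted p = 0.450), 1 of which, SH replicate 1, held the 48.7 FPKM. In EE libraries alone Slc2a1 passed, at 0.63 ± 0.09 (adjusted p = 0.00138). Abcb1a measured 1.25, 1.35 and 2.09 FPKM in hippocampus EE and 2.05, 1.01 and 1.72 FPKM in hippocampus SH, against 1.26 to 3.39 FPKM in cortex. Its log2 difference was -0.35 ± 0.15 (adjusted p = 0.0879), and the gene passed as lower with median-of-ratios scaling (-0.42, adjusted p = 0.0343) or without cortex SH replicate 3 (-0.45, adjusted p = 0.0109).

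For the junction genes and the remaining receptors the tissue ranges overlapped. Cldn5 was at 36.3 to 51.9 FPKM in hippocampus and at 39.3 to 105.6 FPKM in cortex replicates 1 to 3 (log2 difference -0.32 ± 0.18, limma, adjusted p = 0.196), and at -0.14 without cortex SH replicate 3. Cdh5 was at 4.74 to 11.2 FPKM and 6.14 to 11.8 FPKM (-0.32 ± 0.20, adjusted p = 0.240). Tek, Pecam1, Flt1 and Tie1 had log2 differences from -0.13 to 0.14 with adjusted p-values from 0.480 to 0.531. When the choroid-rich libraries and cortex SH replicate 3 were left out together, Cdh5 (-0.67, adjusted p = 0.00329) and Tek (-0.45, adjusted p = 0.0196) passed as lower in hippocampus beside Abcb1a. So 4 of the 10 genes passed, 1 higher and 3 lower, beside 31.0% of all genes called. Kdr was higher in both these fits, while its companion VEGF receptor Flt1 measured 1.85 ± 0.245 FPKM (SD, n = 6) in hippocampus and 1.66 ± 0.536 FPKM in cortex replicates 1 to 3.

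**Figure D2:**
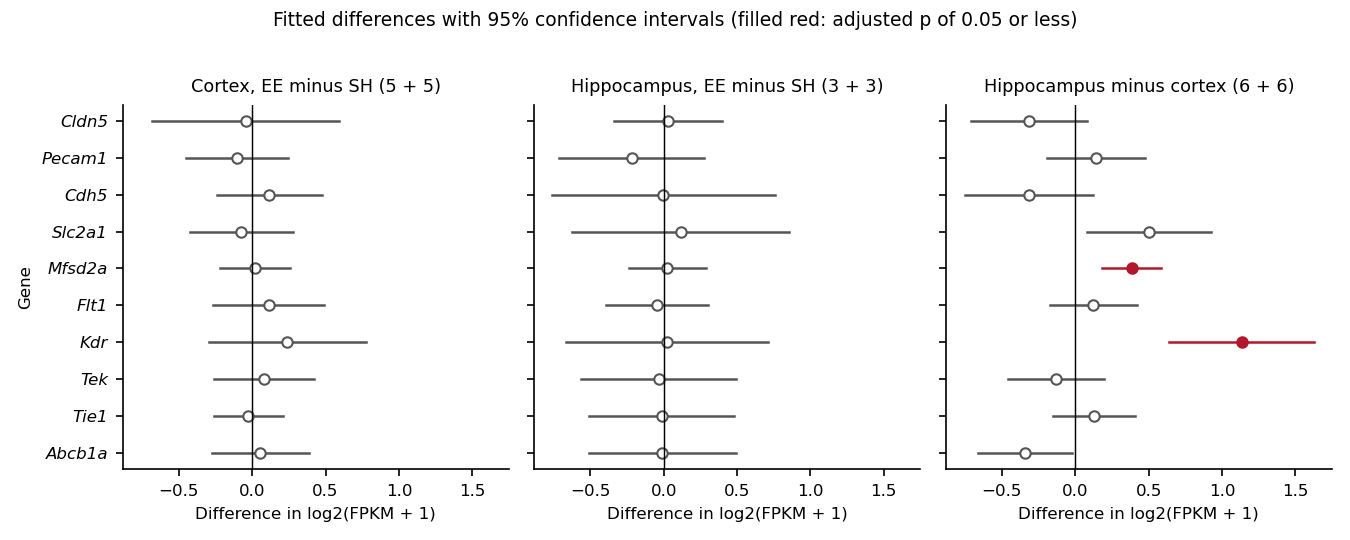
Fitted differences in log2(FPKM + 1) with 95% confidence intervals for the 10 genes (vertical axis) in 3 comparisons, with the numbers of libraries in brackets. Filled red points have a limma adjusted p of 0.05 or less: Kdr at 1.14 and Mfsd2a at 0.39 between tissues, and none between EE and SH.

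**Figure D3:**
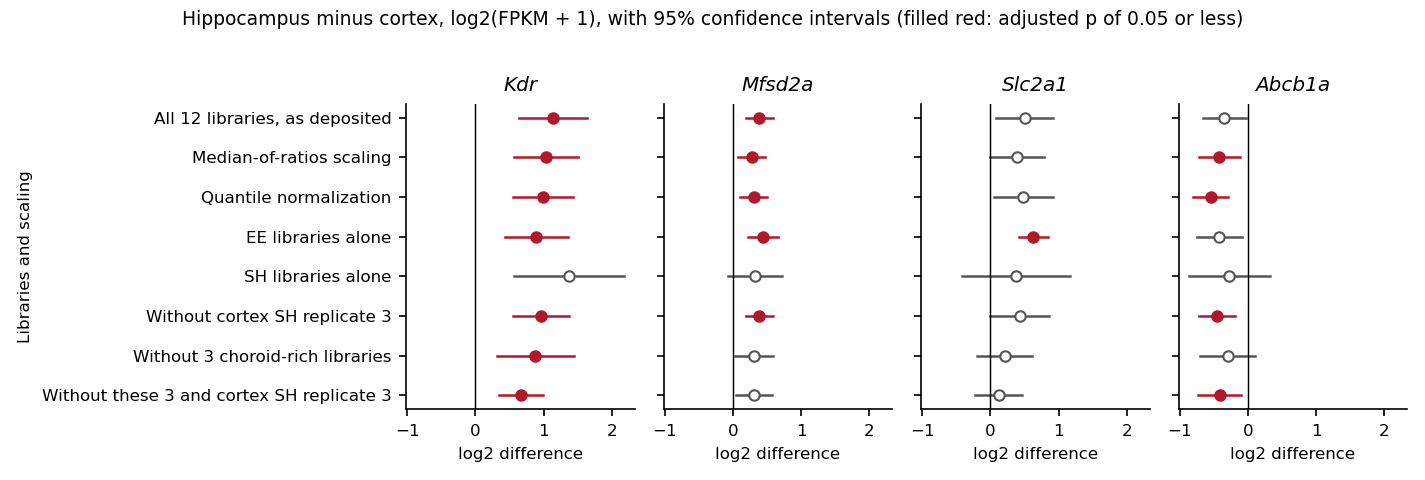
Hippocampus minus cortex log2 differences of Kdr, Mfsd2a, Slc2a1 and Abcb1a with 95% confidence intervals under 8 choices of libraries or scaling, filled red where the limma adjusted p is 0.05 or less. Kdr stays above 0 in all 8, at 0.67 to 1.38, and misses the threshold in SH libraries alone. Mfsd2a misses it there and in both fits without the choroid-rich libraries.

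Other genes of the same vascular pathways were compared between tissues through 5 lists. VEGF, angiopoietin and Notch genes of vessels had 9 higher and 1 lower of 22 tested (45.5% called, beside 35.4% of all genes, median log2 difference 0.27). With median-of-ratios scaling 6 were higher and 3 lower (40.9%, against 33.4% of all genes). Without the choroid-rich libraries 4 were higher and 2 lower of 21 (28.6%, against 16.4% of all genes). The 3 with the smallest p were Nrp1 (neuropilin-1, a co-receptor of VEGF), Notch1 and Dll4 (a Notch ligand of endothelial tip cells). Nrp1 was at 5.69 to 9.59 FPKM in 6 cortex libraries and 24.6 to 66.7 FPKM in hippocampus (log2 difference 2.25 ± 0.20, limma, adjusted p = 7.56e-06). Notch1 (1.37, adjusted p = 9.87e-05) and Dll4 (0.77, adjusted p = 0.000215) were also higher. Nrp1 and Notch1 are also made by neurons and progenitors, so their levels in whole tissue are not specific to vessels.

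Genes of Wnt signalling to brain endothelium had 9 higher and 2 lower of 17 tested (64.7% called, median 0.48), the highest share of the 5 lists, beside 35.4% of all genes. Tnfrsf19, a Wnt target receptor, was at 14.9 to 22.9 FPKM in cortex and 40.5 to 57.2 FPKM in hippocampus (log2 difference 1.26 ± 0.11, limma, adjusted p = 7.69e-06). Axin2, a common readout of canonical Wnt signalling (1.02, adjusted p = 5.10e-05), and Tspan12, a co-receptor component for norrin (0.78, adjusted p = 3.61e-05), were higher as well. Without the choroid-rich libraries 4 of 17 were higher and 1 lower (29.4%, against 16.4% of all genes), and without cortex SH replicate 3 as well 8 and 1 (52.9%, against 31.0%). Markers of radial glia, which also carry Wnt signals, moved with this list: 9 of 12 were higher and 1 lower (83.3%, beside 35.4% of all genes). These markers summed to 1395 to 2203 FPKM in hippocampus and 1195 to 1959 FPKM in cortex replicates 1 to 3. Their part in the Wnt and Notch values was not tested.

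Of the barrier junction and transport genes 7 were higher and 1 lower of 29 tested (27.6%, median 0.17), below the 35.4% of all genes. Among those with the smallest p were Slco1c1, an organic anion transporter of barrier endothelium, and Jam2, a junctional adhesion molecule. Slco1c1 was at 9.49 to 14.9 FPKM in cortex replicates 1 to 3 and 17.4 to 37.7 FPKM in hippocampus (log2 difference 1.13 ± 0.16, limma, adjusted p = 0.000213). Jam2 followed (0.94, adjusted p = 0.000571). Both also passed without the choroid-rich libraries, at 0.97 and 0.87, where 3 genes of this list were higher and 1 lower of 27 (14.8%, against 16.4% of all genes).

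Other endothelial identity genes had 5 higher and 1 lower of 30 tested (20%, median 0.07), below the 35.4% of all genes. With median-of-ratios scaling 3 were higher and 2 lower (16.7%, against 33.4% of all genes). Without the choroid-rich libraries 3 were higher and 1 lower of 29 (13.8%, against 16.4% of all genes). Bcl6b (0.53, limma, adjusted p = 0.000471) and Sox7 (0.59, adjusted p = 0.002998), transcriptional regulators of endothelium, and the membrane protein gene Tm4sf1 (1.02, adjusted p = 0.00233) had the smallest p. The hypoxia and glycolysis list was split, with 5 higher and 3 lower of 19 (42.1%, beside 35.4% of all genes, median 0.03). With median-of-ratios scaling the medians of the identity and hypoxia lists were -0.02 and -0.09, beside -0.01 over all genes. The hypoxia calls were then 4 higher and 4 lower (42.1%, against 33.4% of all genes). Hk2 (a hexokinase, 0.99, adjusted p = 0.000166) and Kdm3a (a histone demethylase induced by hypoxia, 0.85, adjusted p = 0.00127) were higher. Slc2a3 (the neuronal glucose transporter GLUT3) was lower at -0.54 (adjusted p = 0.00322). That call was lost without the choroid-rich libraries (-0.41, adjusted p = 0.0757) but made without cortex SH replicate 3 as well (-0.52, adjusted p = 0.00216). Neuron markers were lower too, 8 of 12, beside 35.4% of all genes called. Without the choroid-rich libraries 3 were lower (16.4% of all genes called), and without cortex SH replicate 3 as well 8 (31.0%).

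Markers of other vessel-associated cells did not move as 1 group. Of 13 tested pericyte and smooth muscle genes 1 was higher and 3 lower in hippocampus (30.8%), a share below the 35.4% of all genes called. The higher one, a call not made with median-of-ratios scaling, was Pdgfrb, the defining pericyte receptor, at 8.17 ± 1.38 FPKM in hippocampus and 6.15 ± 0.897 FPKM in cortex replicates 1 to 3 (SD, n = 6 each). Meningeal and fibroblast markers were lower: 9 of 15 tested (60%, beside 35.4% of all genes), with a median log2 difference of -0.88. They summed to 76.4 to 1267 FPKM in hippocampus and 1028 to 2669 FPKM in cortex replicates 1 to 3, with Col1a1 at 3.06 to 25.1 FPKM and 12.2 to 19.0 FPKM. Meninges carry vessels of their own, and the part of this difference in the levels of the 10 genes was not tested.

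In the cortex, the question was whether enrichment changed these genes. None of the 10 passed between 5 EE and 5 SH libraries (limma, smallest adjusted p = 0.835), with log2 differences from -0.10 (Pecam1) to 0.24 (Kdr), 6 above and 4 below 0. Over all 12539 genes tested 1 passed (0.00798%), and 934 had an unadjusted p under 0.05, while none of the 10 did. The 95% confidence intervals of the 10 ran from -0.68 to 0.77 at their widest bounds, Cldn5 below and Kdr above. Simulated log2 shifts of 1 were called in 81% of cases by this test and shifts of 0.5 in 21%. Smaller changes were thus mostly not detectable with these libraries. The simulation shifted many genes at once and gave each gene independent noise. With few true changes the adjusted threshold is harder to reach, so these shares may be too high for the 10 genes.

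The ranges of EE and SH overlapped for all 10 genes over the 5 and 5 cortex libraries, beside 2.62% of all genes whose ranges did not overlap. The transporters were close in mean: Mfsd2a was at 13.01 ± 1.17 in EE against 12.9 ± 1.64 FPKM in SH, Slc2a1 at 21.0 ± 4.39 and 22.2 ± 4.36 FPKM, and Abcb1a at 2.48 ± 0.249 and 2.42 ± 0.772 FPKM (SD, n = 5 each). Among the receptors, Tie1 was at 5.11 ± 0.694 in EE against 5.22 ± 0.757 FPKM in SH, and Tek at 3.35 ± 0.821 and 3.11 ± 0.673 FPKM. Kdr was at 5.53 ± 1.41 in EE against 4.71 ± 1.798 FPKM in SH, and its lowest value, 1.899 FPKM, was that of SH replicate 3. Without that library 3 of the 10 differences were above 0 and 7 below, from -0.21 to 0.20, and none passed (smallest adjusted p = 0.593).

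The EE difference had opposite signs in the cortex sets for all 10 genes. On the log2 scale it was -0.62 (Cldn5) to 0.50 (Kdr) in replicates 1 to 3 and -0.29 (Pecam1) to 0.81 (Cldn5) in replicates 4 and 5. How many of all genes changed sign is not given here, so the count does not show a trait particular to these 10. Of all 12539 genes tested, 2434 had an unadjusted p under 0.05 for the difference between the sets (limma), and 1 of the 10 did. Cldn5 had the widest gap between the sets. In replicates 1 to 3 it measured 39.3, 50.7 and 44.6 FPKM in EE and 54.5, 56.9 and 105.6 FPKM in SH, so every EE library lay below every SH library. In replicates 4 and 5 it measured 46.4 and 69.8 FPKM in EE and 31.4 and 32.4 FPKM in SH, so both EE libraries lay above both SH libraries. Ranges that do not overlap occurred in 29.9% of genes in the first set and 46.6% in the second. Mfsd2a was the other gene without overlap in replicates 4 and 5, at 13.9 and 14.0 FPKM in EE and 12.2 and 12.3 FPKM in SH, while its ranges overlapped in replicates 1 to 3.

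Fitted alone, replicates 1 to 3 gave Cldn5 a log2 difference of -0.62 ± 0.26 (limma, adjusted p = 0.414, 0 of 12890 genes called). Replicates 4 and 5 alone gave 0.81 ± 0.21 (adjusted p = 0.00782), 1 of the 10 genes called in a fit of 2 against 2 libraries in which 435 of 12576 genes (3.46%) passed. The difference between the sets was 1.43 ± 0.39 and did not pass over all genes (limma, adjusted p = 0.251), as was true of every gene tested (0 of 12539). Over both sets together Cldn5 was at 50.1 ± 11.7 in EE against 56.2 ± 30.1 FPKM in SH (SD over 5 libraries each; log2 difference -0.04 ± 0.29).

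Cortex SH replicate 3, which held the highest Cldn5 value, lay outside the range of the other 5 libraries of its set for 8 of the 10 genes, above it for Cldn5 and below it for 7. On the log2 scale its deviation from the mean of the other 5 was 1.10 for Cldn5, -1.08 for Kdr, -0.66 for Flt1, -0.63 for Cdh5, -0.62 for Abcb1a and -0.53 for Tek. Mfsd2a (0.04) and Tie1 (-0.06) lay within the range of the other 5. How many of all genes lay outside that range is not given here. The count of 8 thus does not show a trait particular to the 10 genes. Across the 10 genes the deviation of cortex SH replicate 3 ran with transcript length at a Spearman rho of -0.85, and across 12231 genes at -0.76. This describes 1 library in which genes are not independent. Genes with a longest transcript under 1500 bases had a median deviation of 0.82 in that library (1243 genes), against -0.17 for longer ones. Short genes also differed between EE and SH in the direction of Cldn5: their median EE minus SH was -0.42 in cortex replicates 1 to 3 and 0.30 in replicates 4 and 5, against 0.02 and -0.04 for longer genes. Of the short genes, 17.2% had a larger absolute difference than Cldn5 in replicates 1 to 3 and 5.55% in replicates 4 and 5. With each library's trend on length removed, the difference of Cldn5 between the sets was 0.88 ± 0.24 (limma, unadjusted p = 0.0037, adjusted p = 0.321). As deposited it was 1.43 (unadjusted p = 0.0049, adjusted p = 0.251). Without cortex SH replicate 3 it was 1.13 ± 0.23 (adjusted p = 0.0800). Markers of several other cell types were also highest in that library. The 6 erythroid genes listed in all libraries, Alas2 among them, summed to 4073 FPKM there and to 870 to 1798 FPKM in the other 9 cortex libraries. Meningeal and fibroblast markers summed to 2669 against 653 to 1677 FPKM, microglia and macrophage markers to 364 against 141 to 262 FPKM, pericyte and smooth muscle markers to 186 against 96.01 to 162 FPKM, and radial glia and astrocyte markers to 1959 against 1030.0 to 1587 FPKM. Neuron markers (3594 against 2940 to 3457 FPKM) and further endothelial genes (216 against 142 to 177 FPKM) were highest there too. Summed FPKM of all genes was also highest there (511438 against 339726 to 396658), so these sums are not shares of a library. The Wnt list was lowest there (314 against 363 to 449 FPKM). The VEGF, angiopoietin and Notch list (169 FPKM) and choroid plexus markers (302 FPKM) lay within the range of the other cortex libraries. What sets this library apart was not tested.

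**Figure D4:**
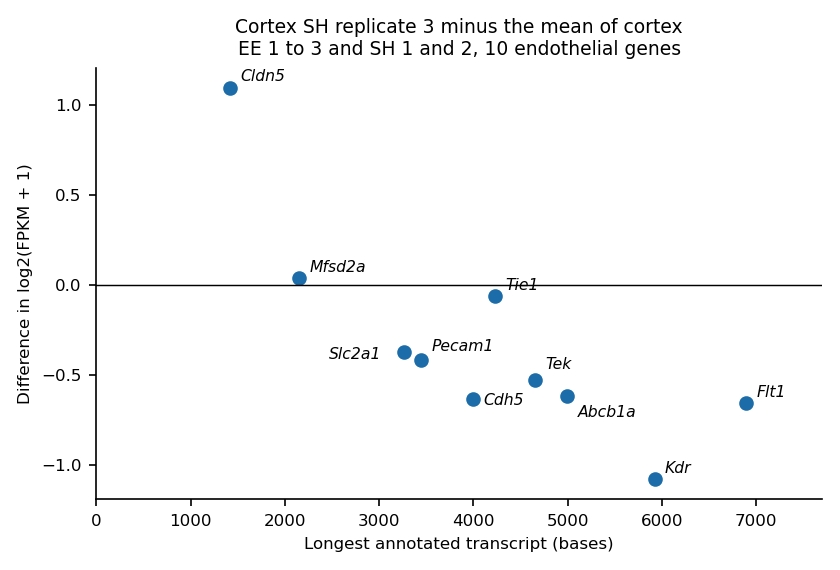
Each point is 1 of the 10 genes; the horizontal axis is the longest annotated transcript in bases and the vertical axis the log2(FPKM + 1) of cortex SH replicate 3 minus the mean of the other 5 libraries of its set. Cldn5, with 1416 bases, lies at 1.10 and Kdr, with 5924 bases, at -1.08.

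Of the vascular lists none had a gene that passed in cortex between EE and SH: 0 of 30 endothelial identity, 0 of 27 barrier, 0 of 17 Wnt, 0 of 21 VEGF, angiopoietin and Notch, and 0 of 18 hypoxia genes. Their medians lay between -0.05 and 0.03, beside -0.02 over all genes. The smallest p in these lists belonged to Wnt7a, the ligand that neural progenitors send to brain endothelium. It was at 8.19 ± 0.964 in EE against 10.9 ± 0.97 FPKM in SH (SD over 5 libraries each; log2 difference -0.38 ± 0.10, limma, adjusted p = 0.354), and every EE value, up to 9.48 FPKM, lay below every SH value, from 10.3 FPKM up. Slco1c1 was at 14.1 to 21.5 FPKM in EE and 9.49 to 13.7 FPKM in SH (0.51 ± 0.13, adjusted p = 0.373), also without overlap. Ranges did not overlap for 2.62% of all genes. Wnt7a and Slco1c1 were picked for a small p in this same comparison, so the lack of overlap adds no support. Axin2 (-0.38, adjusted p = 0.425), Esam (an endothelial adhesion molecule, -0.30, adjusted p = 0.510), Dll4 (-0.32, adjusted p = 0.520), Lyl1 (an endothelial and blood transcription factor, -0.55, adjusted p = 0.537) and Gimap6 (-0.31, adjusted p = 0.586) came next among those named by p. Jam2 (0.27), Lrp5 and Angpt1 (0.23 and 0.24), Hey2 (-0.18), and Ldha, Pgk1 and Ero1l (-0.32, -0.20 and 0.18) had adjusted p-values from 0.653 to 0.780.

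In the hippocampus the same question gave no call. None of the 10 genes passed between 3 EE and 3 SH libraries (limma, adjusted p = 0.9996 for each), with log2 differences from -0.22 (Pecam1) to 0.12 (Slc2a1), and none had an unadjusted p under 0.05. Over all 13344 genes tested 0 passed (0.0%), and 503 had an unadjusted p under 0.05. Simulated log2 shifts of 1 were called in 53% of cases and shifts of 0.5 in 10%, shares that may again be too high for the 10 genes. The group means nearly coincided for Kdr (11.3 ± 3.598 in EE against 11.3 ± 4.39 FPKM in SH), Slc2a1 (30.2 ± 2.56 and 30.2 ± 16.2 FPKM), Tek (2.68 ± 1.05 and 2.69 ± 0.409 FPKM) and Abcb1a (1.56 ± 0.462 and 1.59 ± 0.536 FPKM; SD, n = 3 each), but the spread within a group was wide, and the confidence intervals of the 10 reached from -0.76 to 0.85.

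Ranges overlapped for all 10 genes in hippocampus, beside 9.91% of all genes whose ranges did not. For Slc2a1 the SH group held both the lowest value, 19.2 FPKM, and the highest, 48.7 FPKM, with the 3 EE values between them. Pecam1 was at 5.53, 6.06 and 4.05 FPKM in EE and 8.35, 4.92 and 5.64 FPKM in SH. The signs of the differences turned on single libraries of both groups. Without SH replicate 1, which was choroid-rich, 9 of the 10 were above 0 (-0.03 to 0.51, smallest adjusted p = 0.612), and without SH replicate 2 all 10 were below 0 (-0.36 to -0.06, smallest adjusted p = 0.687). Without EE replicate 3, 8 were above 0 (median 0.11), and without EE replicate 2, 7 were below 0 (median -0.13), against 4 above and 6 below with all libraries (median -0.01). All 12 choroid plexus markers tested had EE minus SH differences above 0, with a median log2 difference of 0.86 and none called, and their part in the values of the 10 genes was not tested.

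Of the vascular lists in hippocampus 0 of 30, 0 of 29, 0 of 17, 0 of 22 and 0 of 18 genes passed, with medians from -0.07 (endothelial identity) to 0.002 (barrier), beside -0.01 over all genes. Sox18, an endothelial transcription factor, was at 2.80 ± 1.02 in EE against 4.55 ± 0.746 FPKM in SH (log2 difference -0.57 ± 0.22, limma, adjusted p = 0.9996). Slc7a5, the large neutral amino acid transporter of the barrier, was at 53.0 to 54.9 FPKM in EE and 62.6 to 98.5 FPKM in SH (-0.44, adjusted p = 0.9996). Ranges did not overlap for 9.91% of all genes, and Slc7a5 was picked for a small p in this same comparison. Axin2 was at -0.41, Itgb8 (an integrin that activates TGF-beta around vessels) at -0.55, Lyl1 at -0.37, Wnt7a at -0.25 and Dll4 at -0.27, none of them passing. The others named by p in these lists were Fli1 (-0.35), Tjp1 (-0.28), Slc7a1 (-0.28), Lrp6 (-0.23), Unc5b (-0.27), Mxi1 (-0.14), Pfkfb3 (-0.15) and Pfkfb4 (-0.16).

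No difference in EE effect between the tissues passed its own test (0 of 10 and 0 of 13158 genes called, 0.0%, with 990 at an unadjusted p under 0.05). The differences for the 10 genes ran from -0.48 (Kdr) to 0.65 (Cldn5), with a smallest adjusted p of 0.495 for Cldn5. Fitted as 1 effect common to the 3 sets of libraries, which gives the narrowest intervals, the 10 log2 differences lay between -0.15 (Pecam1) and 0.16 (Kdr), with a median of 0.03 beside -0.01 over all genes. None passed (limma, smallest adjusted p = 0.856), while 42 of 12672 genes (0.331%) did. Without cortex SH replicate 3, 228 genes passed, but still none of the 10 (smallest adjusted p = 0.416), and 3 of their differences were then above 0 and 7 below. The narrowest interval was that of Mfsd2a, from -0.14 to 0.18, and the widest that of Kdr, from -0.26 to 0.57, with Cldn5 from -0.43 to 0.39. These intervals take the 16 libraries as independent. The labels do not say whether cortex and hippocampus libraries share a fetus or litter. In the same fit 0 of 31 endothelial identity, 0 of 28 barrier, 0 of 17 Wnt, 0 of 22 VEGF, angiopoietin and Notch, and 0 of 19 hypoxia genes passed. Axin2 (-0.40 ± 0.10, adjusted p = 0.0987) and Wnt7a (-0.33 ± 0.08, adjusted p = 0.0950) had the smallest adjusted p of the genes named from the lists, followed by Dll4 (-0.30, adjusted p = 0.185) and Lyl1 (-0.48, adjusted p = 0.204).

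From library to library, within a set and a treatment, most of the 10 genes moved together. With the mean of each set and treatment subtracted, 40 of the 45 pairs of genes had a positive Pearson r over 16 libraries, with a median of 0.49. The pairs Cdh5 and Kdr (0.92), Kdr and Tek (0.91) and Cdh5 and Tek (0.84) were highest, and the lowest was Cldn5 with Flt1 (-0.44). These values describe libraries that share their dissection, depth and composition, and carry no test. Pairs drawn from all genes were not computed, so the values do not show a trait particular to these 10 genes. Kdr (0.92), Cdh5 (0.87), Tie1 (0.85), Pecam1 (0.81) and Tek (0.75) followed the mean of the other 9 genes most closely, Flt1 (0.55), Mfsd2a (0.49) and Abcb1a (0.43) less, and Cldn5 had a value of -0.09. When cortex SH replicate 3 was left out, the value was 0.59 for Cldn5, 0.26 for Abcb1a and 0.42 for Flt1, and 43 of 45 pairs were then positive (median 0.47, 15 libraries). The mean deviation of the 10 genes was highest in hippocampus SH replicate 1 (0.33 on the log2 scale) and cortex SH replicate 2 (0.24), and lowest in hippocampus SH replicate 2 (-0.31) and cortex SH replicate 3 (-0.24).

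Among 12662 other genes, those that most resembled the mean deviation of the 10 were Slco2b1 (an organic anion transporter of brain endothelium, r = 0.95), Lamc3 (a laminin chain, 0.94), 3632451O06Rik (0.94), Col4a2 (a collagen chain of basement membranes, 0.94), Epb41l5 (0.94), Cdyl (0.93), Mcm4 (0.93) and Myh9 (0.93), over 16 libraries. Without cortex SH replicate 3 these values were 0.91 to 0.95. Slco2b1 is the 1 gene of these 8 that belongs to a vascular list.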

How the data were processed

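RNA was sequenced from 16 libraries of total RNA made with a NEBNext Ultra kit, per the labels' protocols. The authors deposited 1 table of FPKM values per library. Tools listed, with no role, in the submitters' processing notes are StringTie 1.3.4d, HISAT2 2.0.4, cutadapt 1.9, DESeq2 and edgeR, on build mm10; the annotation is not given in the sources used here. FPKM is relative to transcript length and to the total of a library, so abundant genes lower the values of others.

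From the deposited FPKM, log2(FPKM + 1) was computed and fitted with limma 3.58.1 in R 4.3.3 (trended, Benjamini-Hochberg over all genes with a mean of at least 1 FPKM, threshold 0.05), and the fit was tested on simulated data. EE and SH were compared within tissue, with a term for the cortex set, tissues over replicates 1 to 3 with treatment as a term, and the EE effect between tissues and sets as interactions. Reads were recovered from FPKM steps within a tolerance of 0.003 reads for over 99% of genes, and limma-voom on them called 0 of the 10 genes between EE and SH in cortex and 2 between tissues (4785 of 13121 genes). Positions came from GENCODE M21, which held 93.3% of 16250 symbols.

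All 10 genes are named, with the 3 smallest p of each list in each comparison described, the 8 genes most alike over libraries, and the first marker of other cell types. One gene that this rule names is not reported here. The members and lists were chosen with earlier results of these data known. Alternatives were scaling, filter, pseudocount, subsets, each library left out, the replicate block, length and choroid-rich libraries.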

Additional observations from a re-analysis of the deposited data

Results flagged for a closer look

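For Cdh5 in the cortex SH group, replicate 3 (6.14 FPKM) lay far below the other 4 libraries. On the log2(FPKM + 1) scale its gap to the nearest was 0.836 of the group's range. For Tek the same library (1.93 FPKM) had a gap of 0.860 of the range on that scale. The limit for 5 libraries was 0.710, 20 groups were tested, and chance alone passes it in about 1 in 20 groups. The deviations of that library ran with transcript length, and their cause was not tested.

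The EE difference of Cldn5 had opposite signs in the cortex sets, below SH in all 3 EE libraries of replicates 1 to 3 and above it in both of replicates 4 and 5 (test of the difference by limma, adjusted p = 0.251). For Flt1 every EE library lay above the SH mean in replicates 1 to 3 (log2 difference 0.30) and below it in replicates 4 and 5 (-0.17; limma, adjusted p = 0.390). For Slc2a1 every EE library lay below the SH mean in cortex replicates 1 to 3 (-0.14) and above it in hippocampus (0.12; limma, adjusted p = 0.760). None of these 3 differences passed.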

How the results depend on the processing

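With any 1 library left out, none of the 10 genes passed between EE and SH, and Kdr and Mfsd2a passed between tissues. Of the 10 genes, 1 (Cldn5) passed between EE and SH with cortex replicates 4 and 5 alone. Between tissues 4 passed with quantile normalization (32.1% of all genes called), 5 with the length trend removed (47.4%) and 0 in SH libraries alone (3.93%). The number was 1 without the choroid-rich libraries (16.4%) and 4 without those and cortex SH replicate 3 (31.0%). With the settings used throughout it was 2 (35.4%), and the cause of these changes was not tested. Over all genes, calls between EE and SH in cortex numbered 3 with quantile normalization or without cortex SH replicate 3, 7 with the length trend removed and 435 with replicates 4 and 5 alone, against 1. Calls between tissues numbered 518 in SH libraries alone and 2131 without the choroid-rich libraries, against 4661. For the common EE effect they numbered 11 with a mean of at least 5 FPKM, 118 with the length trend removed, 228 without cortex SH replicate 3 and 17 to 53 without any other 1 library, against 42. The fits by length, on recovered reads and without choroid-rich libraries were chosen after seeing the data. Depth limits Abcb1a most, at 106 recovered reads in 1 library.

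Small differences that did not pass changed sign in some fits, and the cause was not tested. For cortex EE minus SH, the log2 difference turned to 0.015 for Cldn5 and 0.0037 for Tie1 with quantile normalization. It turned to 0.076 for Cldn5 with the length trend removed. It turned to 0.81 for Cldn5, -0.058 for Cdh5, 0.028 for Slc2a1, -0.17 for Flt1, -0.16 for Kdr, -0.020 for Tek and -0.068 for Abcb1a in cortex replicates 4 and 5 alone. It turned to 0.025 for Pecam1, -0.088 for Mfsd2a and 0.013 for Tie1 in cortex replicates 1 to 3 alone. For hippocampal EE minus SH, the log2 difference turned to -0.014 for Cldn5, 0.031 for Cdh5, 9.7e-05 for Tek and 0.021 for Tie1 with quantile normalization. It turned to -0.032 for Cldn5, 0.041 for Cdh5, 0.063 for Flt1, 0.027 for Tek, 0.034 for Tie1 and 0.063 for Abcb1a with the length trend removed. It turned to 0.023 for Cdh5, 0.0085 for Tie1 and 0.010 for Abcb1a with median-of-ratios scaling. It turned to 0.00051 for Cdh5 with a pseudocount of 0.1. It turned to 0.052 for Cdh5 and 0.023 for Tie1 with limma-voom on recovered reads. For hippocampus minus cortex, the log2 difference turned to 0.0072 for Cldn5 and -0.051 for Flt1 in EE libraries alone. It turned to -0.048 for Pecam1, -0.090 for Flt1 and -0.067 for Tie1 with quantile normalization. It turned to -0.057 for Pecam1 and -0.10 for Tie1 with the choroid-rich libraries left out. It turned to -0.17 for Pecam1, -0.057 for Flt1 and -0.12 for Tie1 with those and cortex SH replicate 3 left out. For the common EE effect, the log2 difference turned to 0.0037 for Cldn5 and 0.018 for Slc2a1 with median-of-ratios scaling. It turned to 0.0034 for Cldn5 and 0.014 for Tie1 with quantile normalization. It turned to 0.035 for Cldn5 and 0.018 for Slc2a1 with the length trend removed. It turned to 0.0035 for Slc2a1 with limma-voom on recovered reads.

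With 1 library left out in turn, cortex EE minus SH ranged over -0.27 to 0.20 for Cldn5, -0.012 to 0.23 for Cdh5, -0.18 to 0.023 for Slc2a1, -0.025 to 0.094 for Mfsd2a, -0.023 to 0.22 for Flt1, -0.027 to 0.19 for Tek, -0.081 to 0.023 for Tie1 and -0.077 to 0.14 for Abcb1a. Likewise, hippocampal EE minus SH ranged over -0.11 to 0.14 for Cldn5, -0.27 to 0.28 for Cdh5, -0.14 to 0.51 for Slc2a1, -0.056 to 0.081 for Mfsd2a, -0.12 to 0.020 for Flt1, -0.21 to 0.29 for Kdr, -0.24 to 0.17 for Tek, -0.14 to 0.17 for Tie1 and -0.18 to 0.12 for Abcb1a. Likewise, the common EE effect ranged over -0.15 to 0.13 for Cldn5, -0.0089 to 0.17 for Cdh5, -0.095 to 0.12 for Slc2a1, -0.0057 to 0.066 for Mfsd2a, -0.034 to 0.11 for Flt1, -0.030 to 0.11 for Tek, -0.063 to 0.037 for Tie1 and -0.050 to 0.080 for Abcb1a. Between tissues, Kdr ranged over 0.96 to 1.25 and Mfsd2a over 0.35 to 0.44, with 2 to 3 of the 10 genes passing.

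Replicate numbers were not taken to pair the libraries, since correlations of deviations between same-numbered EE and SH libraries were 0.403, 0.0892, 0.406, and 0.135 (1 value for replicates 4 and 5, whose deviations mirror each other) in cortex and -0.170, -0.556 and 0.364 in hippocampus. The best match of a library in the other group had its own number for 9 of 10 cortex and 2 of 6 hippocampal libraries, a hint from the data and not the design. In that count the libraries of cortex replicates 4 and 5 rest on their 1 shared value, 0.135, and are not separate matches. Same-numbered cortex and hippocampus libraries of the same treatment had correlations from -0.0290 to 0.273. With the replicate number as a block, 0 of the 10 genes passed between EE and SH in either tissue and 2 between tissues, and no call on them changed. Over all genes the block gave 1 call in cortex, 4357 between tissues and 5, against 42, for the common EE effect.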
